A study of Homo sapiens with 8 samples.

Results

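The clustered histone genes are the genes whose symbols begin with HIST1H, HIST2H, HIST3H or HIST4H, which name the histone gene clusters of the human genome. The table of read counts held 69 such symbols. The 22 described here had at least 10 counts in at least 2 of the 8 libraries, and all 22 also passed the filter on low counts that preceded the tests. They were 2 of the 6 H1 genes, 4 of the 16 H2A genes, 9 of the 20 H2B genes, 4 of the 13 H3 genes and 3 of the 14 H4 genes. Of the other 47 symbols, 21 had no count in any library and 26 had a count somewhere, with 13 counts as the highest value.

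MDA-MB-231 is a human line grown from breast cancer cells, and its ρ0 derivative had been depleted of mitochondrial DNA with ethidium bromide. The study asked how loss of arginine for 48 h changed the transcriptome of both lines. There were 2 libraries in each of 4 groups, namely parental control, parental starved, ρ0 control and ρ0 starved. Control cells grew in full high-glucose DMEM with serum, and starved cells were depleted of arginine for 48 h, by arginine deiminase at 0.3 µg/mL per the labels and by arginine-free medium per the paper. The ρ0 cells were 1 clone, clone 27, in both media, and the study kept ρ0 cells in sodium pyruvate, uridine and ethidium bromide, so the lines differed in more than their mitochondrial DNA. Nothing in the labels says that the 2 libraries of a group came from separate cultures, so the p-values measure the spread between these libraries.

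The libraries held between 25259503 and 31022155 counts, of which 3543 to 7476 fell on the 22 histone genes. All levels below are CPM, a gene's reads relative to the TMM-scaled total of its library, error terms of group means are standard deviations, and a called change is one with an adjusted p-value under 0.05 among 15262 tested genes. The line markers VIM, CD44, KRT8, KRT18, CAV1 and AXL were abundant in every library, and CD3E was at 0. Of the markers expected to be low, ESR1 had 0 to 6 counts and PGR at most 1. ERBB2 and GATA3, also expected to be low, had 759 to 2702 and 121 to 579 counts. CD68, on the list of leukocyte and endothelial markers, had 1368 to 3517 counts. The 2 lines differed in markers that do not belong to mitochondria: CDH1 had 0 to 2 counts in parental libraries and 104 to 457 in ρ0 libraries, EPCAM 0 to 15 against 397 to 697, and FOXA1 212 to 277 against 1 to 4. The study received the ρ0 line from another laboratory, so stock, clone, culture supplements and mitochondrial DNA cannot be told apart as sources of any difference between the lines.

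Histones are the proteins around which DNA is wound. H2A, H2B, H3 and H4 form the core of the nucleosome, and H1 binds the linker DNA between cores. Most clustered histone genes are transcribed during S phase, and their mRNA ends in a conserved stem-loop bound by SLBP rather than in a poly(A) tail. Some of them can also be read past the stem-loop to a poly(A) signal, which gives a polyadenylated mRNA in cells that have left the cycle.

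The stem-loops below are shown because the 3′ end decides which form of a histone mRNA a library can hold. They come from GENCODE release 29 transcripts (GRCh38), in which a match to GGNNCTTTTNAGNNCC was found for 10 of the 22 members and 18 of the other 47 symbols. Capitals mark the 16 bases of the stem and loop, and the lower-case bases flank them.
HIST1H2AC: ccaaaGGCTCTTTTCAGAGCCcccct
HIST2H2BE: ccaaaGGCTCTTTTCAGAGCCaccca
HIST1H3H: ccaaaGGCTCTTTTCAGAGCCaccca
HIST1H2BD: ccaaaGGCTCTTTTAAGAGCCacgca
HIST1H2AG: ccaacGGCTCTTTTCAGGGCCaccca
HIST1H4H: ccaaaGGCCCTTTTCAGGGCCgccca
HIST1H4I: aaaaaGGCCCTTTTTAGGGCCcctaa

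The form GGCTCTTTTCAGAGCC was carried by 5 members (HIST1H2AC, HIST1H2BN, HIST1H3H, HIST2H2BE and HIST2H2BF), and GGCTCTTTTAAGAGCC by HIST1H2BC and HIST1H2BD. The H4 genes HIST1H4H and HIST1H4I carried the forms with a CCC stem. The annotated transcript went on for 1114 bases after the stem-loop in HIST1H2AC, 1729 bases in HIST2H2BE, 769 bases in HIST1H3H and 630 bases in HIST1H4H. Such a stretch of over 100 bases was annotated for 9 of the 22 members and for 12 of the other 47 symbols. Many entries, such as those of HIST1H1C and HIST1H2BK, hold the coding part alone, so the lack of a match says only that the window did not hold these letters.

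Many H2A and H2B genes lie head to head and share the DNA between their start sites. The table held 10 such pairs, with 193 to 247 bases between the starts, and in 4 pairs both genes were members. Of these 4, 3 are shown because their partners differed in their calls after starvation, from the RefSeq promoter table on GRCh38.p14, plus strand. These positions are not those of hg19, the build in the submitters' processing notes. Capitals mark the octamer ATTTGCAT or its reverse complement ATGCAAAT, the motif bound by POU2F1.
HIST1H2BC and HIST1H2AC, chr6:26123927-26124171: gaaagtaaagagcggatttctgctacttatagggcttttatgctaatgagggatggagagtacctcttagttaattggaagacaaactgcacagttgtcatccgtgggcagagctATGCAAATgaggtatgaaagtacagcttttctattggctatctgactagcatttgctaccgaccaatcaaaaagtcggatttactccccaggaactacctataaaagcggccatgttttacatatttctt
HIST2H2BE and HIST2H2AC, chr1:149886683-149886917: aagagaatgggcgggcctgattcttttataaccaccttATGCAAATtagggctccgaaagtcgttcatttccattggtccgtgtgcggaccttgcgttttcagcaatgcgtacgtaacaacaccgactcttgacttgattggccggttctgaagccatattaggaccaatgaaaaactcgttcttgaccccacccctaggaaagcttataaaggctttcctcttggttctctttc
HIST1H2BJ and HIST1H2AG, chr6:27132796-27133042: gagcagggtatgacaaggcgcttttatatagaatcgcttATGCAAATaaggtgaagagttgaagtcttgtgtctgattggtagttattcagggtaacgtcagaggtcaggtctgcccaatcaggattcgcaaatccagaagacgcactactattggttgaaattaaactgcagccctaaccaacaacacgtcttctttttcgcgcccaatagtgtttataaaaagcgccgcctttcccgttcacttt

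Promoters of 300 bases were matched for 19 of the 22 members. The octamer, searched on both strands, was in 4 of 4 H2A members, 6 of 8 H2B members and none of the 2 H1, 3 H3 and 2 H4 members, against 1.77% of all 35116 promoters. These hits are not independent. Each of the 4 H2A members shares its window, with 1 octamer, with a head-to-head H2B member. Its TATAAA and CCAAT matches can belong to the partner too. CCAAT was in 18 of the 19, with HIST1H4H as the exception, against 34.6% of all promoters. TATAAA was found in 11.5% of all promoters, and in 4 of 4 H2A, 6 of 8 H2B, 2 of 3 H3, 1 of 2 H1 and 0 of 2 H4 members. TATAAA and CCAAT were searched on both strands too, and none of these motifs contains another.

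The summed level of the 22 genes was 166.7 and 184.9 CPM in the parental control libraries and 252.8 and 265.0 CPM in the parental starved ones. In ρ0 cells it was 128.5 and 113.9 CPM in control and 179.6 and 185.9 CPM in starved libraries. The starved libraries were above the controls in both lines, and the ρ0 libraries were below the parental ones in each medium. In full medium this direction rested on HIST1H2BK, with means of 132.5 CPM in parental and 49.3 CPM in ρ0 controls. The summed level of the other members was higher in ρ0 than in parental controls. By class, the H1 and H2A sums were higher in ρ0 controls, those of H2B and H4 were lower, and those of H3 overlapped. In bulk samples, fewer cells of a type and less RNA per cell cannot be told apart. A pair of genes, HIST1H2BK and HIST1H1C, took between 53.9% and 86.6% of the histone reads of a library. HIST1H2BK alone took 74.6% and 76.0% in parental controls (exact 95% binomial intervals 73.5 to 75.8 and 74.8 to 77.1), 45.0% and 46.8% in parental starved, 43.0% and 38.0% in ρ0 control, and 30.1% and 28.7% in ρ0 starved libraries. Its share was therefore highest in parental controls and lowest in starved ρ0 cells. The share of HIST1H1C was 10.6% and 10.7% in parental controls, 35.4% and 33.8% in parental starved, 20.7% and 31.5% in ρ0 control, and 24.2% and 25.2% in ρ0 starved libraries. These intervals cover counting error only.

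**Figure D1:**
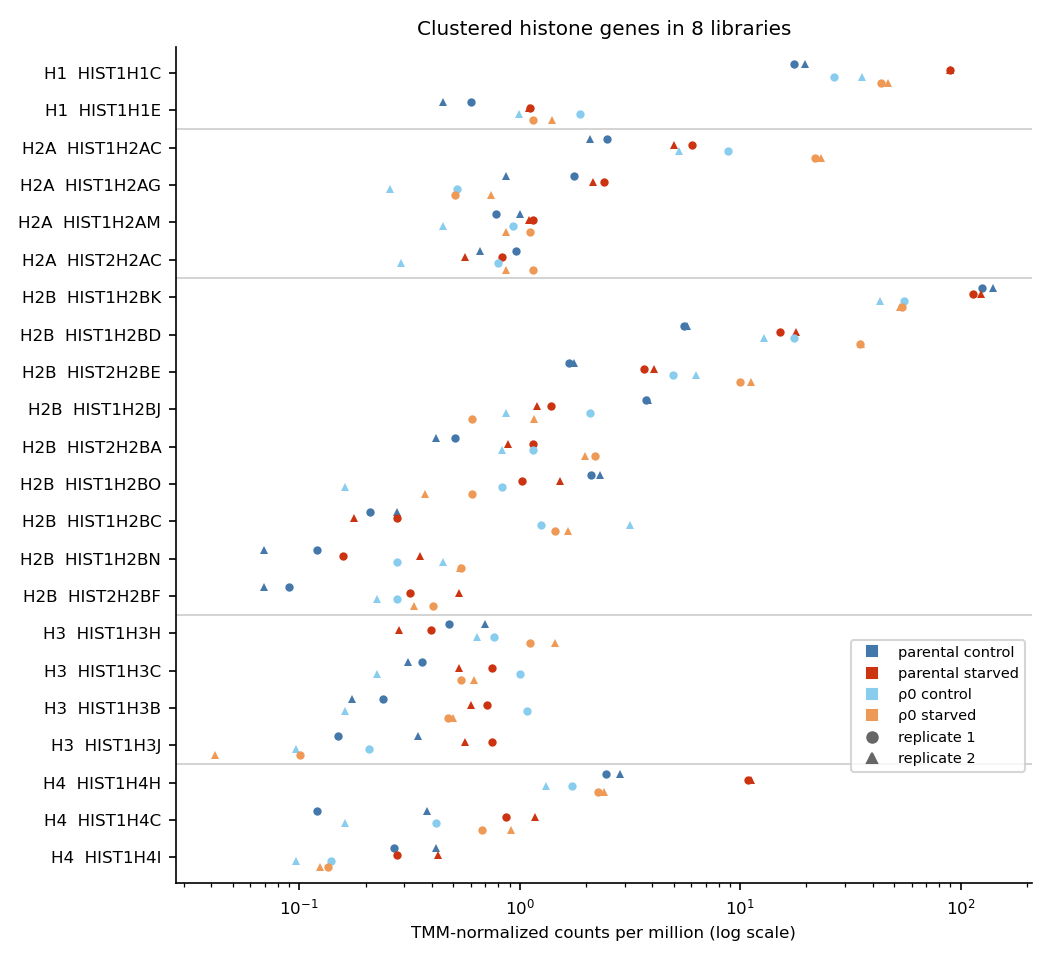
TMM-normalized CPM (log axis) of the 22 clustered histone genes, in rows by class, with 1 symbol per library; colors mark the 4 groups, circles replicate 1 and triangles replicate 2. HIST1H2BK and HIST1H1C lie to the right of the other genes, and most of the rest lie below 10 CPM.

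Some reads of a histone gene also match another gene. All 50-base words of a member's coding transcripts, or of any transcript of a pseudogene, were searched in all transcripts of every other gene. In this search, 6 members shared more than 10% of their words. They were HIST1H2AM with 86.3%, HIST1H2BK with 74.1%, HIST2H2BA, a transcribed pseudogene, with 73.6%, HIST2H2AC with 30.5%, HIST2H2BF with 22.8% and HIST1H2BO with 13.6%. Their counts are uncertain to the extent that reads were split between genes. The gene that matched HIST1H2AM most often was HIST1H3J, at the same locus. HIST1H3J itself shared no word, since its coding transcript alone was used. HIST1H1C, HIST1H3H and HIST1H4H shared no word. HIST1H2AM and HIST1H3J overlap on the same strand, as do HIST1H2BN and HIST1H2AL. HIST2H2BF overlaps FCGR1A and HIST1H2BN overlaps HIST1H2AK on the opposite strand, where reads cannot be told apart without strand.

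The ρ0 control libraries stood apart from each other, with a biological coefficient of variation of 24.5% over all genes against 5.18%, 2.25% and 1.83% within the parental control, parental starved and ρ0 starved groups. In replicate 1, 18 of the 22 histone genes were higher than in replicate 2, and 10 were more than 2-fold apart, against 3, 1 and 1 in the other groups. HIST1H3B, a replication-dependent H3 gene, had 1.08 and 0.161 CPM, and HIST1H2BO had 0.833 and 0.161 CPM. HIST1H2BC went the other way, with 1.25 and 3.18 CPM. Genes of S phase differed the other way: 32 of the 34 on a list of DNA replication genes were higher in replicate 2, with a median log2 ratio of replicate 1 to replicate 2 of -0.63. These libraries also enter the shared estimate of the spread, and without replicate 1 or replicate 2 the share of all tested genes called in parental starvation was 37.2% or 38.9% higher and 42.7% or 41.2% lower. Calls that changed without one of them are given below.

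**Figure D2:**
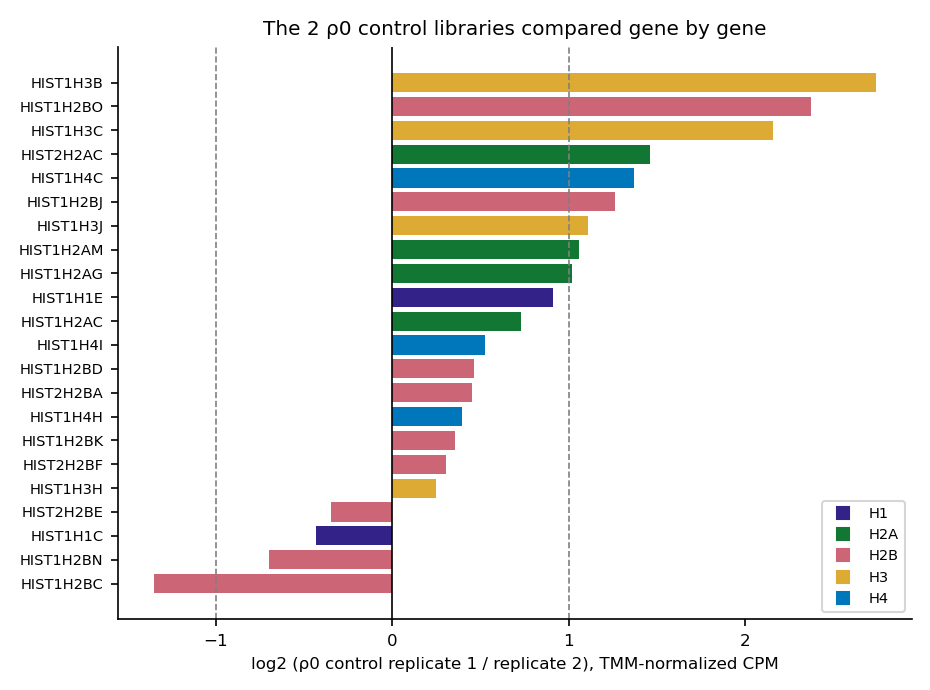
Log2 ratio of ρ0 control replicate 1 to replicate 2 in TMM-normalized CPM for each of the 22 histone genes, as horizontal bars colored by class; dashed lines mark a 2-fold difference. Bars to the right, for 18 genes, are higher in replicate 1, and HIST1H3B, HIST1H2BO and HIST1H3C are the farthest apart.

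Arginine starvation of parental cells was followed by called rises of 10 of the 22 histone genes and a called fall of 1, against 30.4% of all tested genes called higher and 35.5% called lower. With scaling by total counts, 8 were called higher and 2 lower. All 11 also passed a log2 fold change of 1 in size. The median log2 fold change was 1.09 over the histone genes and -0.07 over all tested genes. The genes that rose were both H1, 1 of 4 H2A, 4 of 9 H2B, 1 of 4 H3 and 2 of 3 H4 members. The other 11 did not pass the test. With 1 of the 8 libraries left out, 7 to 13 were called higher, the 13 without either ρ0 control. HIST1H3B (adjusted p = 0.00231 and 0.00166 without replicate 1 and 2), HIST1H3C (0.0460 and 0.0351) and HIST1H2AG (0.0131 and 0.0102) were then called higher and HIST1H2BO lower (0.00558 and 0.00816), and without replicate 1 HIST1H2BK was called lower too (-0.16, adjusted p = 0.0148). With 1 parental library left out, 5 of the calls were lost: those of HIST1H1E and HIST1H2BJ without any of the 4, that of HIST1H3J without any but control replicate 2, that of HIST1H4C without control replicate 1 or starved replicate 2, and that of HIST2H2BA without control replicate 2 or starved replicate 1. The adjusted p-values then lay between 0.0522 and 0.224. DESeq2 did not call HIST1H1E (adjusted p = 0.0757) or HIST1H3J (adjusted p = 0.172).

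HIST1H1C, which encodes a linker histone, had 17.6 and 19.7 CPM in parental controls and 89.6 and 89.5 CPM after starvation. The starved libraries were far above the controls, with a log2 fold change of 2.26 ± 0.15 (SE, adjusted p = 1.95e-05). HIST1H1E, the other H1 gene, had 0.600 and 0.452 CPM against 1.11 and 1.10 CPM, and rose by 1.06 ± 0.38 on the log2 scale (adjusted p = 0.0405). The summed H1 level went from 19.2 ± 1.38 to 90.7 ± 0.0328 CPM (SD, n = 2).

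HIST1H4H had 2.46 and 2.85 CPM in controls and 10.9 and 11.2 CPM after starvation, a log2 fold change of 2.06 ± 0.18 (adjusted p = 5.27e-05). HIST1H4C, which had 0.120 and 0.382 CPM in controls, reached 0.871 and 1.17 CPM (2.05 ± 0.55, adjusted p = 0.0125). HIST1H4I did not pass, with 0.270 and 0.417 CPM against 0.277 and 0.425 CPM. Both H4 genes that rose thus had starved libraries above both controls, while the values of HIST1H4I overlapped.

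Among the H2A genes, HIST1H2AC had 2.49 and 2.08 CPM in controls and 6.06 and 5.03 CPM after starvation (1.27 ± 0.26, adjusted p = 0.00365). HIST1H2AG, HIST1H2AM and HIST2H2AC were not called, with log2 fold changes of 0.78, 0.34 and -0.23. Of the H2B genes, HIST1H2BD had 5.55 and 5.73 CPM against 15.3 and 17.9 CPM (1.56 ± 0.17, adjusted p = 0.000167). HIST2H2BE had 1.68 and 1.77 CPM against 3.68 and 4.08 CPM (1.17 ± 0.19, adjusted p = 0.00108). HIST2H2BA was called higher as well, at 1.12. HIST2H2BF had 5 counts over both controls and 23 over both starved libraries, a ratio, scaled by library size, of 5.35 with an exact 95% counting interval of 1.99 to 18.0.

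HIST1H2BJ was the 1 member called lower, with 3.75 and 3.82 CPM in controls and 1.39 and 1.21 CPM after starvation (-1.55 ± 0.41, adjusted p = 0.0116). HIST1H2BK, the most abundant member in controls, had 124.5 and 140.5 CPM against 113.7 and 124.1 CPM and was not called (-0.16 ± 0.13, adjusted p = 0.305). The summed H2B level, most of it HIST1H2BK, was 146.7 ± 11.7 CPM in controls and 143.9 ± 9.72 CPM after starvation, with overlapping libraries. Of the H3 genes, HIST1H3J was the 1 called higher, from 0.150 and 0.347 CPM to 0.752 and 0.567 CPM (1.42 ± 0.49, adjusted p = 0.0354). HIST1H3B, HIST1H3C and HIST1H3H had log2 fold changes of 1.63, 0.91 and -0.78 that did not pass.

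**Figure D3:**
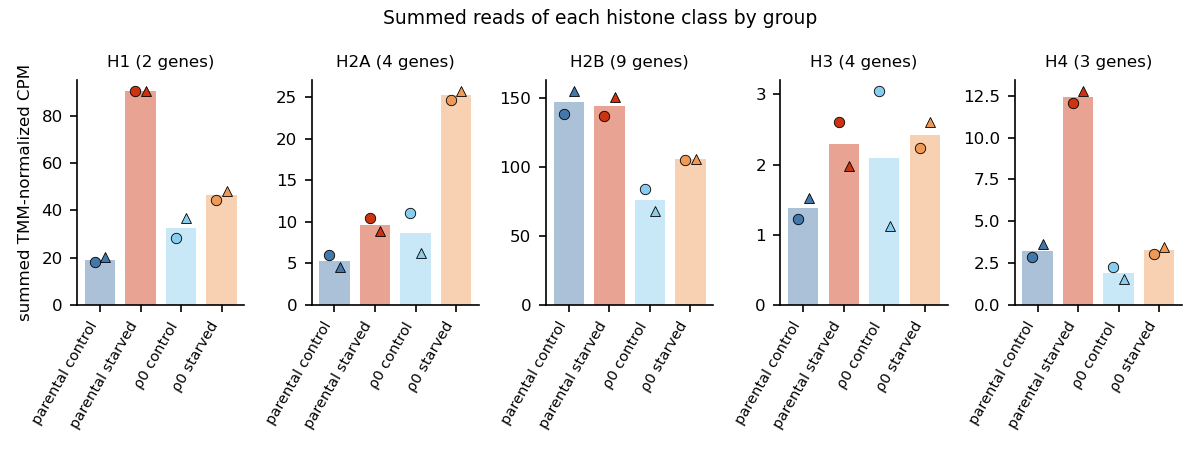
Summed TMM-normalized CPM of the members of each histone class (linear axes that start at 0, with a scale of their own in each panel), by group; bars are means of 2 libraries, circles replicate 1 and triangles replicate 2. The H1 and H4 sums are highest in parental starved cells, the H2A sum in ρ0 starved cells and the H2B sum in parental cells of either medium.

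In ρ0 cells, 6 of the 22 histone genes were called higher after starvation and 0 lower, against 19.2% of all tested genes higher and 22.1% lower. An unadjusted p under 0.05 was reached by 8. The median log2 fold change was 0.54, against -0.02 over all tested genes. The 6 were HIST1H1C, HIST1H2AC, HIST1H2BD, HIST2H2BA, HIST2H2BE and HIST1H4H, and each of them was also called higher in parental cells. Without ρ0 control replicate 1, 14 were called higher and 1 lower, against 31% and 31.8% of all tested genes. The counts without replicate 2 were 5 higher and 2 lower, against 30.8% and 31.6%.

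HIST1H2AC rose the most of these, with 8.81 and 5.31 CPM in ρ0 controls and 21.9 and 23.3 CPM in starved libraries (1.68 ± 0.24, adjusted p = 0.00149). HIST1H2BD had 17.6 and 12.8 CPM against 35.1 and 35.3 CPM (1.21 ± 0.16, adjusted p = 0.00128). The starved libraries of both genes were above both controls. HIST2H2BA had 1.15 and 0.836 CPM against 2.20 and 1.99 CPM (1.08 ± 0.26, adjusted p = 0.0129). HIST2H2BE had 4.96 and 6.30 CPM against 10.0 and 11.2 CPM (0.91 ± 0.17, adjusted p = 0.00434).

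HIST1H1C had 26.5 and 35.9 CPM in ρ0 controls and 43.5 and 46.9 CPM after starvation, a smaller step than in parental cells (0.53 ± 0.14, adjusted p = 0.0220). HIST1H4H had 1.74 and 1.32 CPM against 2.26 and 2.40 CPM (0.61 ± 0.20, adjusted p = 0.0427), and its call was lost with DESeq2 (adjusted p = 0.0776) and with any library but ρ0 control replicate 1 left out (adjusted p = 0.0643 to 0.160). Without ρ0 starved replicate 1 or 2, HIST1H1C was not called (adjusted p = 0.0674 and 0.109), nor was HIST2H2BA (adjusted p = 0.0899 and 0.0582). HIST1H2BK had 55.3 and 43.3 CPM against 54.1 and 53.3 CPM, and its groups overlapped (0.12 ± 0.13, adjusted p = 0.470). None of the H3 genes was called. Of these, HIST1H3B and HIST1H3C changed sides with the library left out: without ρ0 control replicate 1 their log2 fold changes were 1.57 (adjusted p = 0.0351) and 1.34 (adjusted p = 0.0429), and without replicate 2 that of HIST1H3B was -1.13 (adjusted p = 0.0159).

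**Figure D4:**
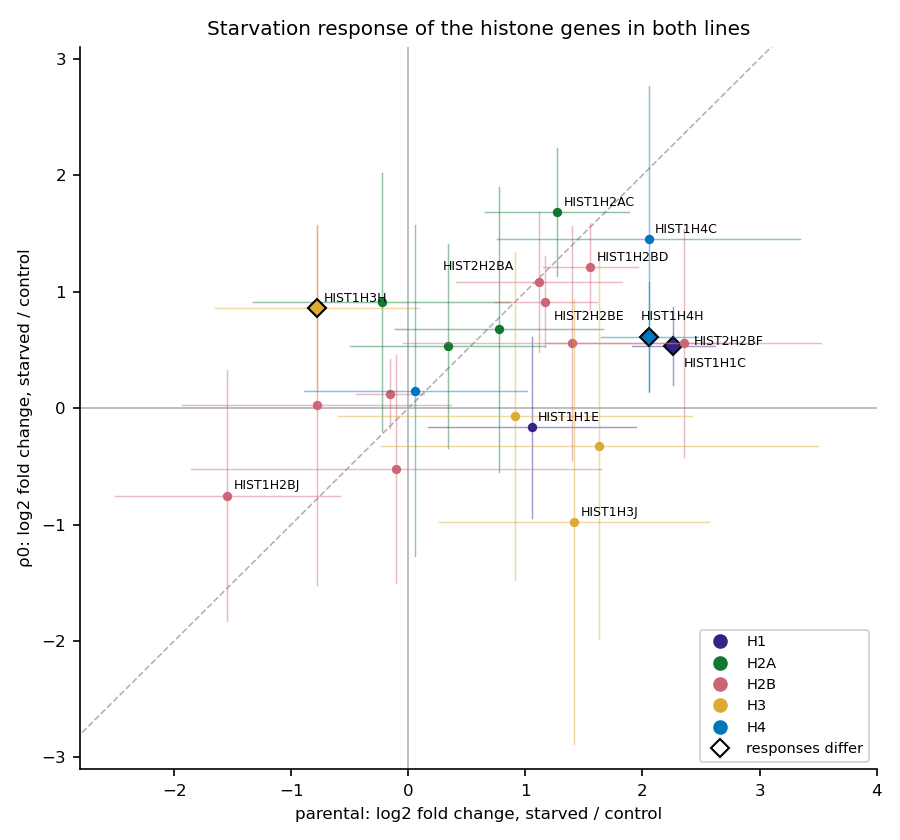
Log2 fold change of each histone gene after arginine starvation in parental cells (x axis) and in ρ0 cells (y axis), with 95% confidence intervals as lines and colors by class; named genes were called in at least 1 of the 2 responses or in their difference, and diamonds mark the 3 genes whose responses differed. HIST1H1C and HIST1H4H lie right of the dashed line of equal response, and HIST1H3H lies left of it.

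The difference between the responses was tested as an interaction (ρ0 response minus parental response). It was called for 1 histone gene in the positive and 2 in the negative direction, against 21.6% and 18.8% of all tested genes. The median over the 22 was -0.30, against 0.02 over all. For HIST1H1C the response was smaller in ρ0 cells, by -1.73 ± 0.21 on the log2 scale (adjusted p = 0.00111), and for HIST1H4H by -1.45 ± 0.27 (adjusted p = 0.00540). HIST1H3H had 0.480 and 0.695 CPM in parental controls and 0.396 and 0.284 CPM after starvation, while its ρ0 values were 0.763 and 0.643 CPM in controls and 1.12 and 1.45 CPM after starvation. Its parental starved libraries were below the controls and its ρ0 starved libraries above theirs, a difference of 1.64 ± 0.48 (adjusted p = 0.0303). Neither response of HIST1H3H passed by itself, and the difference was lost without parental control replicate 2 (adjusted p = 0.118), without either starved replicate of either line (0.0613 to 0.124) and with DESeq2 (adjusted p = 0.105). The counts depended on which ρ0 control was kept, and so did the share of all tested genes called. With 1 library left out, the median difference over the 22 lay between -0.39 and 0.20. DESeq2 called none in the positive direction.

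In full medium, 9 of the 22 histone genes were called higher and 6 lower in ρ0 cells than in parental cells, against 30.5% and 31.8% of all tested genes. The median log2 fold change was 0.51 over the 22 and -0.01 over all tested genes, and without ρ0 control replicate 1 it was -0.47. Without parental control replicate 2, 5 were called higher and 2 lower. HIST1H2BC, an H2B gene with 0.210 and 0.278 CPM in parental controls and 1.25 and 3.18 CPM in ρ0 controls, had the largest rise (3.18 ± 0.53, adjusted p = 0.00141). HIST1H2BN, HIST2H2BE, HIST1H2AC, HIST2H2BF, HIST1H2BD, HIST1H1E, HIST2H2BA and HIST1H1C were also called higher. HIST2H2BF, at 5 counts over both parental controls and 15 over both ρ0 controls, had a ratio of 3.11 with a counting interval of 1.08 to 10.9.

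HIST1H2BK was lower in ρ0 controls, at 55.3 and 43.3 CPM against 124.5 and 140.5 CPM (-1.43 ± 0.13, adjusted p = 6.44e-05). HIST1H2BO had 2.10 and 2.33 CPM in parental and 0.833 and 0.161 CPM in ρ0 controls (-2.17 ± 0.55, adjusted p = 0.0103). HIST1H2AG had 1.77 and 0.868 CPM against 0.520 and 0.257 CPM (-1.78 ± 0.47, adjusted p = 0.0119). HIST1H2BJ, HIST1H4H and HIST1H4I were also called lower. Of the 9 H2B members, 6 were thus called higher and 3 lower in full medium, but not all of these calls held. That of HIST2H2BF was lost with DESeq2 (adjusted p = 0.158) and without ρ0 control replicate 1 (0.127) or 2 (0.0519), and that of HIST1H2BN with DESeq2 (0.0789) and without ρ0 control replicate 2 (0.0863). That of HIST2H2BA was lost without ρ0 control replicate 1. The calls of HIST2H2BF, HIST1H2BN, HIST2H2BA and HIST1H2BJ were also lost without either parental control, and that of HIST1H2BO without parental control replicate 2. None of the 4 H3 members was called, but without ρ0 control replicate 2 HIST1H3B (2.39, adjusted p = 8.72e-05) and HIST1H3C (1.62, adjusted p = 0.00183) were called higher. Without replicate 1, the H2A genes HIST1H2AM (-0.97, adjusted p = 0.0392) and HIST2H2AC (-1.49, adjusted p = 0.0113) were called lower.

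In starved cells, 6 members were called higher and 6 lower in ρ0 than in parental cells, against 32.9% and 33.5% of all tested genes, with medians of -0.19 and -0.01. This comparison does not use the ρ0 control libraries except through the shared estimate of the spread. HIST1H4H had 2.26 and 2.40 CPM in ρ0 against 10.9 and 11.2 CPM in parental cells (-2.24 ± 0.18, adjusted p = 3.21e-05). HIST1H3J had 4 counts over both ρ0 starved libraries and 35 over both parental starved ones, so that it was lower by a ratio of 8.79 with a counting interval of 3.14 to 34.1. HIST1H2AC was higher in ρ0 cells (2.03 ± 0.24, adjusted p = 0.000218), as were HIST1H2BC (2.76 ± 0.58, adjusted p = 0.00382) and HIST1H3H (1.90 ± 0.34, adjusted p = 0.00184).

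Between the lines, 5 members were called higher in ρ0 cells in both media (HIST1H2AC, HIST1H2BC, HIST1H2BD, HIST2H2BA and HIST2H2BE) and 4 were called lower in both (HIST1H2AG, HIST1H2BK, HIST1H4H and HIST1H4I). Of all tested genes, 30.5% and 32.9% were called higher in full medium and in starved cells, and 31.8% and 33.5% lower. The share of all genes called in the same direction in both media was not counted. In full medium, limma-voom weighted by group did not call HIST1H2AG (adjusted p = 0.274), HIST1H4H (0.292), HIST1H4I (0.471) or HIST2H2BA (0.286). Calls of HIST1H2AG and HIST2H2BA in both media, and that of HIST1H4H in full medium, were lost with certain single libraries left out. HIST1H4I had 3 or 4 counts in each ρ0 library, and DESeq2 called it in neither medium (adjusted p = 0.178 in full medium and 0.206 in starved cells). Without a filter on low counts it was not called either (0.0619 and 0.0829), and 1 library left out gave adjusted p-values of up to 0.160 and 0.226. HIST1H1C was called in opposite directions, higher in full medium (0.74 ± 0.15, adjusted p = 0.00321) and lower after starvation (-0.99 ± 0.14, adjusted p = 0.000614). The control and starved comparisons of a line and the comparisons between lines use the same libraries, so their counts are not independent. In the test on all 8 libraries, 18 members were called at least once over the 5 comparisons and 4 were not (HIST1H2AM, HIST2H2AC, HIST1H3B and HIST1H3C). The share of all tested genes called at least once was not counted either.

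Over the 2 starvation responses, partners of a head-to-head pair had different calls in 3 of the 4 pairs. How often 2 genes taken at random differed in their calls was not counted. HIST1H2AC rose in both lines (1.27 and 1.68), while HIST1H2BC on the other side of the same 245 bases had -0.10 and -0.52 and was not called. HIST2H2BE rose in both lines (1.17 and 0.91), and its partner HIST2H2AC had -0.23 in parental and 0.91 in ρ0 cells, neither called. HIST1H2BJ fell in parental cells by 1.55, and HIST1H2AG had 0.78 there, not called. Neither HIST1H2AM nor HIST1H2BO was called in either response on all 8 libraries. Between the lines in full medium, HIST1H2BO was called lower in ρ0 cells (-2.17, adjusted p = 0.0103) and HIST1H2AM was not called (-0.37). The difference between partners was not tested, and wide intervals, such as that of HIST1H2BC, limit what it can show. Without ρ0 control replicate 1, HIST1H2BC was called lower in starved ρ0 cells (-1.04, adjusted p = 0.000720) and HIST2H2AC higher (1.81, adjusted p = 0.00320).

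**Figure D5:**
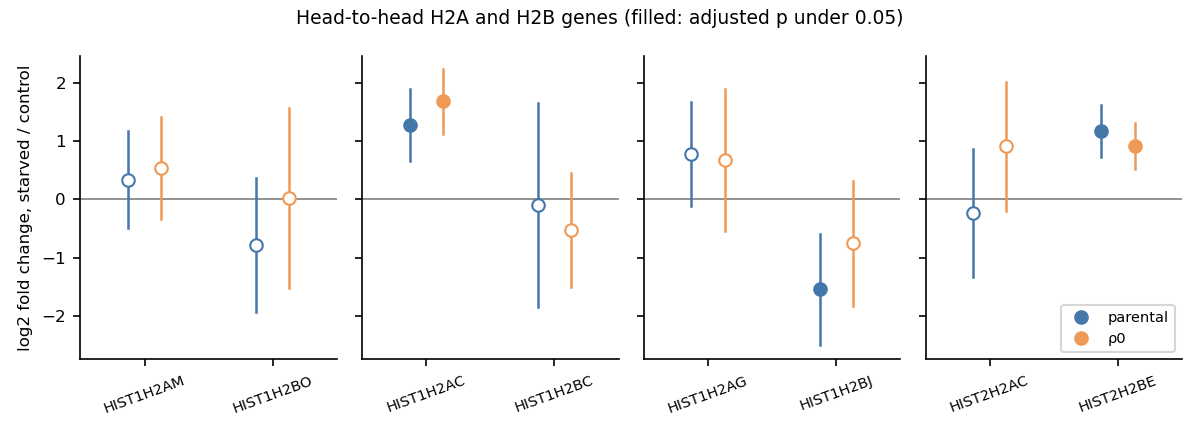
Log2 fold change after arginine starvation, with 95% confidence intervals, of the H2A and H2B genes of the 4 head-to-head pairs, in parental (blue) and ρ0 cells (orange); filled points have an adjusted p under 0.05. HIST1H2AC and HIST2H2BE are above 0 in both lines with filled points, and their partners have open points.

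Members for which a polyadenylated form has been described were set beside the rest. The list, written from general knowledge with earlier results known, held 7 genes (HIST1H1C, HIST1H2AC, HIST1H2BC, HIST1H2BD, HIST1H2BK, HIST2H2BE and HIST1H4H). It was not drawn from the annotation. The poly(A) signal AATAAA lay near the annotated end of HIST1H2AC, HIST1H2BD, HIST2H2BE and HIST1H4H on the list. It also lay there in HIST1H2AG, HIST1H2BJ, HIST1H2BN and HIST1H3H, which are not on it. Of the 7, 5 were called higher in parental cells and 5 in ρ0 cells, against 30.4% and 19.2% of all tested genes, and none was called lower in either response. Of the other 15 members, 5 were called higher and 1 lower (HIST1H2BJ) in parental cells, and 1 was called higher in ρ0 cells. The medians were 1.27 and 0.91 in parental cells and 0.61 and 0.53 in ρ0 cells. Between the ρ0 control libraries, 14 of the 15 others were higher in replicate 1 and 9 differed more than 2-fold, against 4 and 1 of the 7 on the list. The groups of genes differ in depth too, since the list holds the most abundant members. How RNA was selected for the libraries is not given in the sources used here. RPPH1, an RNA without a poly(A) tail that was picked after its values were seen, had 7 to 18 counts in parental libraries, 30 and 36 in ρ0 controls and 114 and 178 in ρ0 starved libraries. Its part in the histone values was not tested.

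Genes on a list for histone transcription and 3′ processing were called higher more often than lower in parental cells. The list is not limited to histone RNA, since it also holds factors that act on mRNA in general. Of 23 tested genes for histone transcription and 3′ processing, 15 were called higher and 4 lower in parental cells, against 30.4% and 35.5% of all tested genes, and 11 to 17 were higher with 1 library left out. In ρ0 cells, 3 were called higher and 6 lower, against 19.2% and 22.1%. These counts became 4 and 12 without ρ0 control replicate 1, 8 and 7 without replicate 2, 1 and 1 without ρ0 starved replicate 1, and 1 and 2 without its replicate 2. The interaction was called positive for 2 and negative for 12, against 21.6% and 18.8%, with medians of -0.47 over the list and 0.02 over all tested genes. With 1 library left out these counts moved, and so did the share of all tested genes called. Counts with 1 library left out, here and for the lists below, are therefore not to be set against the shares on all 8 libraries. SLBP, which binds the stem-loop, had 103.7 and 107.3 CPM in parental controls, 171.0 and 168.7 CPM in parental starved, 142.8 and 232.5 CPM in ρ0 control, and 112.2 and 110.0 CPM in ρ0 starved libraries. It rose in parental cells (0.69, adjusted p = 0.0160) and fell in ρ0 cells (-0.76, adjusted p = 0.0185), with an interaction of -1.44 (adjusted p = 0.00634). The rise was lost without any 1 of the parental libraries (adjusted p = 0.0614 to 0.0869). The fall was -1.06 without ρ0 control replicate 1 and -0.35 without replicate 2, and it was lost without either ρ0 starved library (adjusted p = 0.0966 and 0.106). NPAT, the coactivator of histone genes, rose in parental cells (0.70, adjusted p = 0.000559) and was at -0.06 in ρ0 cells (adjusted p = 0.642). CASP8AP2, a component of histone locus bodies, had the same calls (0.62, adjusted p = 0.00281, and -0.24, adjusted p = 0.152). Both were called lower in ρ0 cells without ρ0 control replicate 1 (-0.15, adjusted p = 0.0470, and -0.39, adjusted p = 9.37e-05). CCNE2, a cyclin of the G1/S transition, went from 11.0 and 10.3 CPM to 35.0 and 34.2 CPM in parental cells, and from 25.4 and 62.8 CPM to 16.8 and 18.5 CPM in ρ0 cells, with an interaction of -3.02 (adjusted p = 0.00400). Its ρ0 log2 fold change of -1.32 was -1.83 without ρ0 control replicate 1 and -0.51 without replicate 2, and was not called without either ρ0 starved library (adjusted p = 0.125 and 0.0980). LSM10 and LSM11, subunits of the U7 particle that cuts histone pre-mRNA, were called in neither response on all 8 libraries. Under some other settings both were called lower in parental cells (-0.27 and -0.31 on all 8 libraries), and LSM11 was called in ρ0 cells. Its ρ0 log2 fold change lay between -0.15 and 0.68 with 1 library left out.

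A list for histone mRNA decay also holds factors that act on mRNA in general. Of its 12 genes, 7 were called higher and 2 lower in parental cells, against 30.4% and 35.5% of all tested genes, and 6 higher and 2 lower in ρ0 cells, against 19.2% and 22.1%. The 6 became 7 and 8 without ρ0 control replicate 1 and 2, 3 without either ρ0 starved library, and 4 without either parental starved library. ERI1, an exonuclease that trims the stem-loop, was among those that rose (0.47, adjusted p = 0.00187, and 0.29, adjusted p = 0.0283), and its ρ0 call was lost without any starved library of either line (adjusted p = 0.0680 to 0.129). The S phase list of 34 genes was called lower more often than higher, with 15 called lower and 4 higher in parental cells, against 35.5% and 30.4% of all tested genes, and 33 lower and 0 higher in ρ0 cells, against 22.1% and 19.2%, and medians of -0.36 and -1.44. Without ρ0 control replicate 1 and 2, 26 and 24 were called lower and 7 higher in parental cells, and with any other library left out 12 to 15 were lower. In ρ0 cells, 30 to 34 were called lower with 1 library left out. RRM2, a subunit of ribonucleotide reductase, fell in both lines (-1.33, adjusted p = 0.00252, and -2.26, adjusted p = 0.000689). PCNA, the replication clamp, and E2F1 fell in ρ0 cells (-1.45, adjusted p = 0.00433, and -1.58, adjusted p = 0.00314) and were not called in parental cells. Without ρ0 control replicate 1 and 2, the ρ0 values were -1.84 and -0.88 for PCNA and -1.99 and -1.01 for E2F1, and both genes were then called lower in parental cells too, at -0.16 and -0.12 for PCNA and at -0.36 and -0.32 for E2F1. The mean log2 CPM of this list was 6.31 and 6.33 in parental controls, 5.81 and 5.81 in parental starved, 6.39 and 6.98 in ρ0 control, and 5.28 and 5.28 in ρ0 starved libraries. Its part in the histone values was not tested.

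Chaperones that carry histones were called lower more often than higher, with 12 lower and 3 higher of 23 in parental cells, against 35.5% and 30.4% of all tested genes, and 11 lower and 0 higher in ρ0 cells, against 22.1% and 19.2%. Without either ρ0 control, 8 were called higher in parental cells, and without any 1 of the parental libraries 1 or 2. In ρ0 cells, 17 were lower and 1 higher without ρ0 control replicate 1, 14 and 5 without replicate 2, and 7 and 6 were lower without ρ0 starved replicate 1 and 2. CHAF1A and CHAF1B, subunits of the assembly factor CAF-1, fell in both lines, by 0.35 and 0.91 in parental cells and by 1.36 and 1.77 in ρ0 cells. The parental call of CHAF1A (adjusted p = 0.0478) was lost with DESeq2 (0.0510) and without any library but a ρ0 control (0.102 to 0.165), and that of CHAF1B without parental starved replicate 2 (0.0520). ASF1B, a chaperone of H3 and H4, was at 0.02 in parental cells and fell by 1.68 in ρ0 cells, with an interaction of -1.70 (adjusted p = 0.00171). ASF1A was called in neither response on all 8 libraries (-0.15 and -0.21), and was called lower in each under some other settings.

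Histone genes outside the clusters were mixed, with 4 higher and 4 lower of 11 tested in each line, against 30.4% and 35.5% of all tested genes in parental and 19.2% and 22.1% in ρ0 cells. In ρ0 cells, 5 were called higher without either ρ0 control, 2 without either parental starved library and 1 without either ρ0 starved library, and 2 to 5 were called lower with 1 library left out. H1F0, a linker histone of resting cells, had 300.3 and 303.3 CPM in parental controls and 533.3 and 530.1 CPM after starvation, and 394.0 and 363.7 CPM against 797.1 and 786.9 CPM in ρ0 cells. Its starved libraries were above the controls in both lines (0.82, adjusted p = 7.35e-05, and 1.06, adjusted p = 0.000157). H1FX, another linker histone, fell by 2.03 in parental cells and was at -0.28 in ρ0 cells, with an interaction of 1.75 (adjusted p = 0.00148), the opposite sign to that of HIST1H1C. H3F3B, which encodes H3.3, went from 492.6 and 506.0 CPM to 979.1 and 1015 CPM in parental cells (adjusted p = 0.000325) and rose by 0.41 on the log2 scale in ρ0 cells (adjusted p = 0.0366). The ρ0 rise was 0.22 without ρ0 control replicate 1 and 0.63 without replicate 2, and it was lost without any 1 of the other 6 libraries (adjusted p = 0.0709 to 0.147). H3F3A, which encodes the same protein, had under 1 CPM in every library, at 12 to 27 counts. H3F3C, also on this list, had 931 to 2516 counts. How reads were assigned among these genes was not tested, so the H3F3A count is not read as its expression. CENPA, the H3 of centromeres, fell in both lines (-2.34, adjusted p = 0.000690, and -1.41, adjusted p = 0.0143), and its ρ0 control libraries held 31.7 and 13.6 CPM. The ρ0 fall was -0.68 without ρ0 control replicate 1 and -1.89 without replicate 2, and it was lost without either ρ0 starved library (adjusted p = 0.0899 and 0.0868). H2AFZ rose in parental cells (0.47, adjusted p = 0.00288), and H2AFX fell in ρ0 cells (-0.88, adjusted p = 0.00193). Without ρ0 control replicate 1 and 2, H2AFX was called higher in parental cells (0.17 and 0.21) and H2AFZ higher in ρ0 cells (0.34 and 0.14). H1FX was called lower in ρ0 cells without replicate 1 (-0.44, adjusted p = 0.00123).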

How the data were processed

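RNA of 8 libraries was sequenced. The values deposited by the authors are raw counts of reads, 1 number per gene symbol and library. The submitters' processing notes name Bowtie, Partek and hg19. The annotation, strand setting and RNA selection are not given in the sources used here. Genes of the mitochondrial genome were not analysed here.

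Counts were tested in R 4.3.3 with edgeR 4.0.16 (filterByExpr, TMM, quasi-likelihood test, 1 mean per group, 4 residual degrees of freedom), with Benjamini-Hochberg adjustment over the 15262 genes, of 23393, that passed the filter. The script was tested on simulated counts. A standard error is the size of the fitted log2 fold change over the root of its F statistic. Alternatives used DESeq2 1.42.0 and limma 3.58.1, other scalings and filters, a replicate block and leaving out each library. Where no library of a group exceeded 3 counts for a gene, the ratio of counts scaled by library size is given. Figures were drawn with matplotlib 3.10.9. Depth, between 25259503 and 31022155 counts, leaves genes under 1 CPM with few reads.

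The members and lists were chosen with earlier results of these data known. Genes named are, per class, the 3 most abundant members, per comparison the 3 largest called rises and falls, the polyadenylated and paired members, and a set of companions. Other members, and RPPH1, are named after their values were seen.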

Additional observations from a re-analysis of the deposited data

Results flagged for a closer look

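The starvation response differed between the lines, by the test of the difference itself, for 3 clustered histone genes. For HIST1H1C the log2 fold change was 2.26 in parental and 0.53 in ρ0 cells, a difference of -1.73 (adjusted p = 0.00111). For HIST1H4H it was 2.06 and 0.61, a difference of -1.45 (adjusted p = 0.00540). For HIST1H3H it was -0.78 and 0.86, a difference of 1.64 (adjusted p = 0.0303). All 3 had the same sign without ρ0 control replicate 1 and without replicate 2. The difference of HIST1H3H was not called with DESeq2 (adjusted p = 0.105) or limma-voom weighted by group (adjusted p = 0.207). It was also lost without parental control replicate 2 and without any 1 starved library of either line. That of HIST1H4H was not called with limma-voom weighted by group (adjusted p = 0.0721). Groups of 2 libraries are too small for a test of single outlying libraries.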

How the results depend on the processing

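Counts of called histone genes were taken as moved when they changed by more than 1.5 times. In parental starvation, 10 genes were called higher in the main test. The 1 called lower became 2 with scaling by total counts, 3 with limma-voom weighted by group and 2 in a fit to the libraries of the comparison alone, and 0 to 3 with 1 library left out. In ρ0 starvation, the 6 called higher became 2 with weighted limma-voom, 3 in the fit to its own libraries, 3 with a log2 fold change over 1, and 3 to 14 with 1 library left out, and the 0 called lower became 0 to 2. For the interaction, the 1 positive call became 0 with a minimum of 10 counts, with DESeq2 and with weighted limma-voom, and 0 to 6 with 1 library left out. The 2 negative calls became 1 with weighted limma-voom and 2 to 7 with 1 library left out. Between the lines in full medium, the 9 higher became 5 with weighted limma-voom and 5 to 9 with 1 library left out, and the 6 lower became 3 with a minimum of 10 counts, 1 with weighted limma-voom and 2 to 8 with 1 library left out. In starved cells, the 6 lower became 3 with a minimum of 10 counts, where 10 members were tested. With 1 library left out, the share of all tested genes called moved too, and the cause of the other moves was not tested. With 1 library left out, the median between the lines in full medium, 0.51, lay between -0.47 and 0.78, and the ρ0 responses of HIST1H3B and HIST1H3C, -0.33 and -0.07, between -1.13 and 1.57 and between -0.78 and 1.34, with the first bound of the median and the upper bounds of the responses without ρ0 control replicate 1. The log2 ratio of summed H1 levels in parental starvation was 2.24, and 2.12 with upper-quartile and 2.08 with total-count scaling, and that of H2B was -0.03, and -0.19 with total counts. The median of all genes in that comparison was -0.07 with TMM, -0.19 with upper quartile and -0.23 with total counts, and changes are to be read relative to it. Of the 47 called changes of single members, 47 kept their call with DESeq2's size factors, 39 with DESeq2 and 32 with weighted limma-voom, and none changed sign under any setting run for single members. A member below 10 counts in a library keeps wide intervals at this depth.

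The labels share replicate numbers but do not say what a number marks, and deviations of same-numbered libraries correlated at -0.05 in parental and -0.03 in ρ0 cells. With a replicate block, 9 members were called higher and 1 lower in parental starvation and 5 higher and 0 lower in ρ0 starvation, and 43 of the 47 calls were kept.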
